A study of Mus musculus with 56 samples.

Results

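Blood vessels and connective tissue of the lung are maintained by secreted growth factors and the receptors that read them. Platelet-derived growth factors act on fibroblasts, smooth muscle cells and pericytes, fibroblast growth factors and insulin-like growth factors act on many cell types, ephrins are membrane-bound ligands of Eph receptor tyrosine kinases, and the endothelial receptor Tek (Tie2) answers to angiopoietins, while neuropilin 1 (Nrp1) is a co-receptor for vascular endothelial growth factors and semaphorins. Insulin-like growth factor binding proteins carry these factors outside the cell. In acute lung injury the endothelium becomes leaky, and several of these molecules are known regulators of vessel permeability and repair.

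The genes described here were chosen by symbol, as the spots of the microarray whose gene name begins with Fgf, Vegf, Pdgf, Igf, Egf, Flt and a digit, Tie, Angpt, Epha, Ephb, Efn, Edn or Hgf, or is Kdr, Tek, Nrp1, Nrp2 or Met. The rule found 31 of 7625 clones with a gene name, for 29 of 5883 gene symbols. No spot matched Vegf, Flt, Kdr, Hgf or Met. The clones fall into 11 of ligands (Pdgfa, Pdgfb, Fgf1, Fgf15, Fgf17, Igf1, Egf, Efnb1, Efnb3 and a pair of clones of Igf2), 9 of receptors (Nrp1, Tek, Pdgfra, Fgfr4, Fgfrl1, Igf2r, Ednrb, Epha2 and Ephb6), and 4 of binding proteins and other secreted factors (Igfbp3, Igfbp5, Igfals and Angptl4). The remaining 7 clones share only the first letters of their names: Igf2bp1, Igf2bp2 and Igf2bp3 encode proteins that bind RNA, Fgfr1op (now Cep43) and Fgfr1op2 were named as fusion partners of an FGF receptor, and Tieg3 (now Klf11) encodes a transcription factor. They are called intracellular namesakes and are counted apart.

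Oleic acid (OA), a fatty acid that injures the lung when it is given in the blood, was injected into the tail vein of female C57Bl/6J mice, 7 weeks old, under xylazine and ketamine anesthesia. RNA of the smallest lung was taken from 4 mice at 1 h, 6 at 1.5 h, 7 at 3 h, 4 at 4 h, 3 at 18 h and 3 at 24 h. Each group of times forms a stage: early (1 h and 1.5 h, 10 mice), intermediate (3 h and 4 h, 11 mice) and late (18 h and 24 h, 6 mice). The serum microarrays analysed here came from mice of the same strain, sex and age that received physiological serum in the same way, 2 at 1 h, 1 at 1.5 h, 2 at 3 h, 2 at 18 h and 1 at 24 h, and no serum microarray at 4 h was analysed here. RNA was hybridized to nylon membranes spotted with mouse cDNA clones, usually on 2 membranes for an OA mouse, and values below are means of the membranes of a mouse.

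The detection threshold of a membrane was set at the 95th percentile of its 2159 spots without a gene name, which lay between 8.67 and 9.63 on the log2 scale of the deposited table. Some of these spots hold clones, so the threshold is strict. A clone was counted as detected in a mouse when its value exceeded the threshold on the only membrane of that mouse or on at least 1 of 2. By this measure 14 of the 31 clones (45.2%) were detected in 14 or more of the 27 OA mice, against 37.1% of all named clones, and 15 were detected in none. Detected throughout were the ligands Pdgfa and Fgf1, the receptors Nrp1 and Pdgfra, the binding protein Igfbp3 and the brighter clone of Igf2bp3. By role, 3 of 11 ligand clones, 6 of 9 receptor clones, 4 of 4 clones of binding proteins and other secreted factors and 1 of 7 namesakes were detected in 14 or more of the mice, and the difference between roles was not tested. The median SD between membranes of the same mouse was 0.211 (log2) over the 31 clones (23 mice with 2 membranes), and the SD between mice of the same time point was 0.217 at the median, a value that is taken over means of membranes.

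Over the 6 time points, 2 of the 31 clones differed between OA mice, Angptl4 and Pdgfb, where 2.01% of all named clones passed the same test (limma's moderated F test on the deposited values, Benjamini-Hochberg adjusted p under 0.05 over 7625 clones). Over the 3 stages, 3 of the 31 differed, Angptl4, Pdgfb and Tek, where 6.16% of all did. Without adjustment, 8 clones had p under 0.05 over the time points (25.8%, against 15.8% of all named clones) and 10 over the stages (32.3%, against 24.3%). The range between the highest and the lowest of the 6 time means was 0.375 at the median of the 31 clones (log2) and 0.334 over all named clones, and it ran from 0.066 in Igf2r to 1.44 in Angptl4. In the comparison of stages in pairs, Angptl4, Pdgfb and Tek passed between early and intermediate (2.64% of all named clones did), Angptl4 and Pdgfb between intermediate and late (3.11%), and none between early and late (2.81%). The highest stage mean was at the early stage in 11 clones, at the intermediate stage in 7 and at the late stage in 13, most of them with no difference past the test. The profiles of all clones are drawn by role in the plot of time means.

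**Figure D1:**
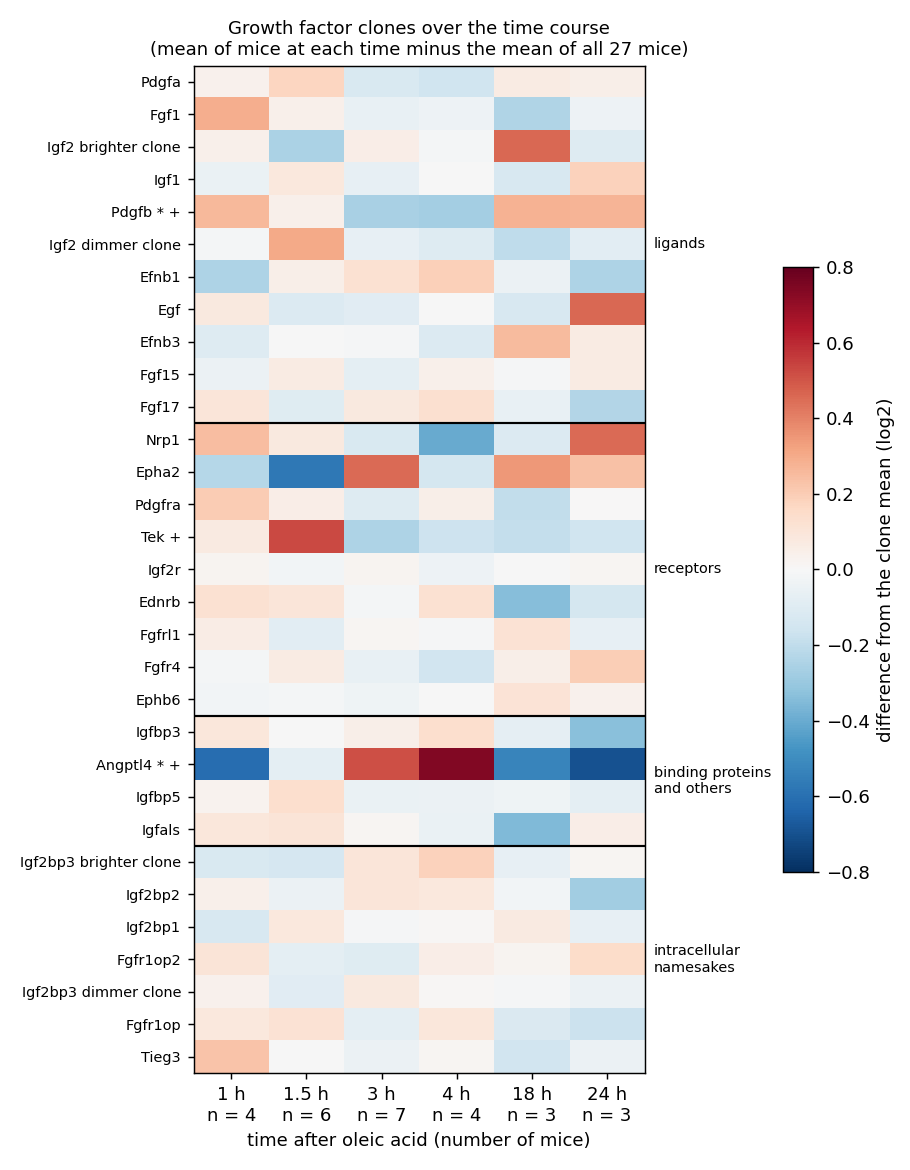
Mean log2 value of the OA mice at each time point minus the mean of the 27 OA mice (colour), for 31 clones (rows, grouped by role) at 6 times (columns). An asterisk marks an adjusted p under 0.05 over 6 time points and a plus sign one over 3 stages. Angptl4 has the widest range (1.44), with its highest mean at 4 h, and Igf2r the narrowest (0.066).

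Angptl4, a secreted angiopoietin-like protein that inhibits lipoprotein lipase and is known to be induced by fasting, hypoxia and fatty acids, rose at the intermediate stage and fell at the late stage. At 1 h the 4 mice measured 8.52, 8.64, 8.76 and 8.94 on the log2 scale of the deposited table. At 1.5 h the 6 mice lay between 8.61 and 9.66, with a median of 9.39. At 3 h the 7 mice lay between 9.38 and 10.49 (median 9.87), and at 4 h the 4 mice measured 9.67, 9.92, 10.30 and 10.38. The 11 intermediate mice lay above every 1 h mouse, and 3 mice at 1.5 h reached into their range, at 9.50, 9.52 and 9.66. At 18 h the 3 mice measured 8.54, 8.83 and 9.02, and at 24 h 8.13, 8.68 and 9.08. Every late mouse lay below every intermediate mouse, and no late mouse exceeded the highest early one. The intermediate mean exceeded the early mean by 0.89 (SE 0.16, limma, adjusted p = 0.00158), the late mean lay below the intermediate mean by -1.21 (SE 0.19, adjusted p = 0.000233), and late and early means differed by -0.32 (SE 0.19, adjusted p = 0.325). The adjusted p was 0.000838 over 6 time points and 0.000149 over 3 stages.

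The clone was detected in 5 of 10 early mice, 11 of 11 intermediate mice and 1 of 6 late mice, so the early and late means rest in large part on values under the threshold and no fold is given. Its SD between membranes of a mouse was 0.190, against 0.358 between mice. Lots, the number after the letter L in the sample names, are unevenly spread, since early mice come from lots 2 and 3 and late mice from lot 1, while intermediate mice come from all of them. Within lots 2 and 3 the intermediate mice exceeded the early mice by 0.89 (SE 0.18, 8 against 10 mice, adjusted p = 0.0461), and within lot 1 the late mice lay below the intermediate mice by -1.28 (SE 0.23, 6 against 3 mice, adjusted p = 0.0383). Both differences were as large as over all lots, and leaving out each OA mouse in turn kept the call over the stages in 27 of 27 fits. Some marker clones of other cells differed over the same stages. Of 4 neutrophil clones, S100a8 differed, with stage means of 12.00, 11.92 and 10.49 (adjusted p = 0.0243), while S100a9 had 12.08, 12.48 and 11.28 (adjusted p = 0.0706). Ltf had 8.78, 8.81 and 8.90 (detected in 6 OA mice, limma, adjusted p = 0.696). Camp had 8.68, 8.68 and 8.48 (detected in 3 OA mice, adjusted p = 0.341). The mean of the neutrophil list lay between 9.86 and 11.45 in early mice, 9.74 and 10.83 in intermediate mice and 9.39 and 10.23 in late mice. Of 12 hepatocyte clones, 4 differed, each highest at the late stage, where 6.16% of all named clones differed over the stages. The mean of the hepatocyte list lay between 8.96 and 9.69 in early mice, 9.07 and 10.00 in intermediate mice, and 9.56 and 10.41 in late mice. The 5 adipocyte clones were detected in no OA mouse, and none differed. The part of these cells in the Angptl4 differences was not tested.

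**Figure D2:**
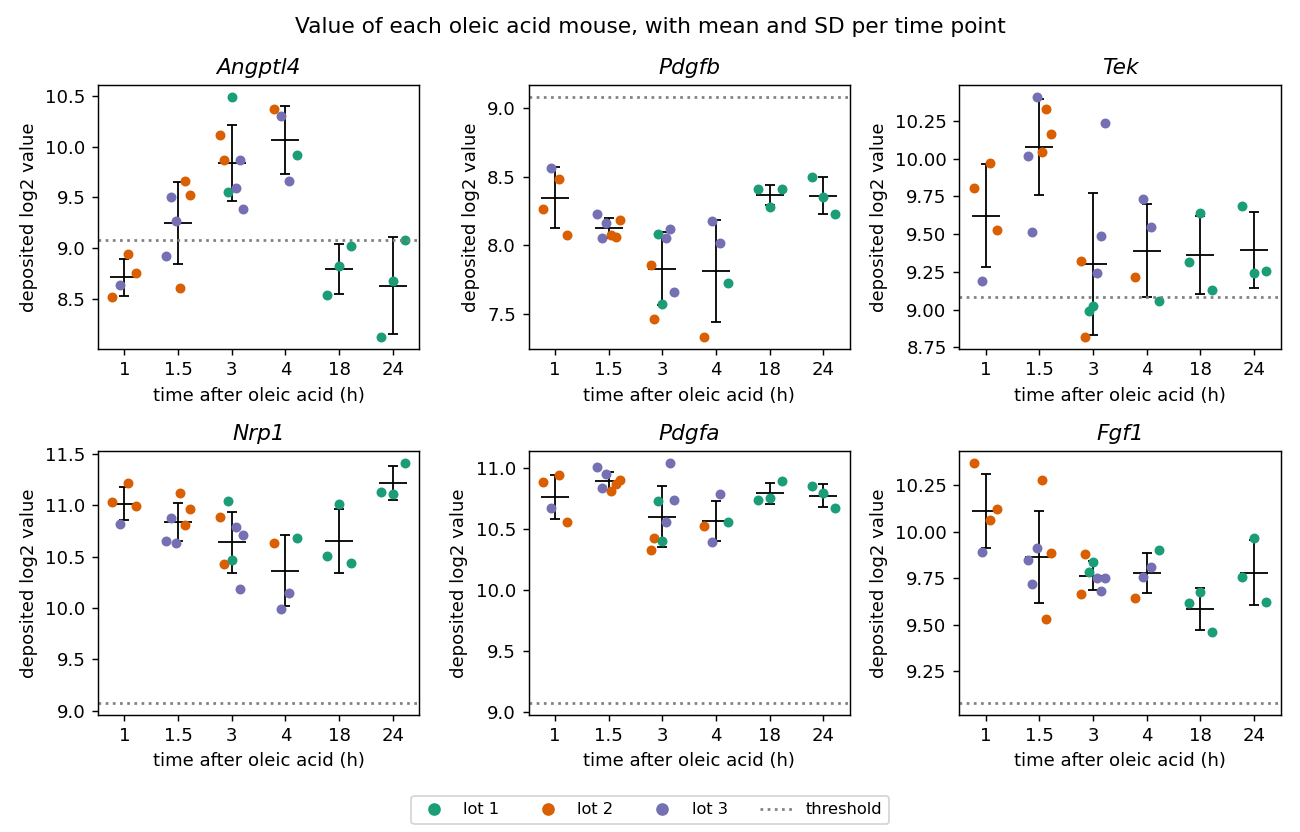
Deposited log2 value of each OA mouse (points, coloured by lot) at 6 times for 6 genes, with the mean and SD of each time point (black) and the median detection threshold of the OA membranes, 9.08 (dotted). Angptl4 lies between 9.38 and 10.49 at 3 h and 4 h and no higher than 9.08 at 18 h and 24 h, while Pdgfb is lowest at 3 h and 4 h and stays under the threshold throughout.

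Pdgfb, the ligand through which endothelial cells recruit pericytes, moved the other way. The 4 mice at 1 h measured 8.08, 8.27, 8.48 and 8.57, and the 6 mice at 1.5 h lay between 8.05 and 8.23 (median 8.12). The 7 mice at 3 h lay between 7.47 and 8.12 (median 7.86), and the 4 mice at 4 h measured 7.34, 7.73, 8.02 and 8.18. At 18 h the values were 8.28, 8.41 and 8.41, and at 24 h 8.23, 8.35 and 8.50. The late mice all lay above the intermediate mice, and the early and intermediate mice overlapped between 8.05 and 8.18. The intermediate mean was lower than the early mean by 0.39 on the log2 scale (difference -0.39, SE 0.10, limma, adjusted p = 0.0246) and the late mean was 0.54 above it (SE 0.11, adjusted p = 0.00514). The adjusted p over 6 time points was 0.0473, and with each OA mouse left out in turn it stayed under 0.05 in 6 of 27 fits, whereas over 3 stages it did so in 27 of 27. With the deposited serum column subtracted, the intermediate value minus that of the other stages was -0.03 in place of -0.46 and did not pass (adjusted p = 0.532). Within lots 2 and 3 the intermediate minus early difference was -0.43 (SE 0.11, adjusted p = 0.0966), and within lot 1 late minus intermediate was 0.57 (SE 0.12, adjusted p = 0.0668), both as large as over all lots and neither past the threshold. The clone was detected in none of the 27 OA mice, so these differences were measured among signals in the range of the spots without a gene name. Of 2 platelet marker clones, Itga2b was detected in 27 OA mice and Gp9 in none, neither differed, and the part of platelets in the Pdgfb differences was not tested.

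Pdgfa, the ligand made by lung epithelium that acts through Pdgfra, was detected in all 27 OA mice and did not pass the test. Early mice lay between 10.56 and 11.01 (median 10.88), intermediate mice between 10.33 and 11.04 (median 10.56) and late mice between 10.67 and 10.89 (median 10.77). The intermediate minus early difference was -0.25 (SE 0.07, adjusted p = 0.0589 for the pair and 0.0697 over 3 stages). Its receptor Pdgfra was spread more widely, between 9.64 and 10.40 in early mice, 9.20 and 10.51 in intermediate mice and 9.64 and 10.21 in late mice, and an adjusted p over 3 stages of 0.522. Between early and intermediate mice, Pdgfra differed by -0.16 (SE 0.13).

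Among the fibroblast growth factors, only Fgf1, a factor that binds all the classical FGF receptors, was detected. At 1 h, the time of its highest mean, the 4 mice measured 9.89, 10.07, 10.12 and 10.37. At 18 h, the time of its lowest mean, the 3 mice measured 9.46, 9.62 and 9.68, so these times did not overlap. The mice at 1.5 h lay between 9.53 and 10.28 and overlapped both. The early mean exceeded the mean of the other stages by 0.24, with an adjusted p of 0.178 over 6 time points and 0.105 over 3 stages. Fgf15, Fgf17 and the receptors Fgfr4 and Fgfrl1 were detected in no OA mouse. Their widest difference between stages was that of Fgf17 from intermediate to late (-0.25, SE 0.11), and their adjusted p over 3 stages lay between 0.155 and 0.909. Among the other ligands, Egf, Efnb1 and Efnb3 were likewise detected in no OA mouse, and none of them passed the test over time points or stages.

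In the insulin-like growth factor family, 0 of 7 clones of ligands, receptor and binding proteins differed over time points or stages at the adjusted threshold. Of all named clones 2.01% differed over time points and 6.16% over stages, so 0 of 7 is no result about the family. Igf2r, which clears Igf2 from the cell surface, had the flattest profile of all 31 clones, with time means between 9.23 and 9.30 and mice between 8.99 and 9.52. The clones of Igf2 did not follow each other. The brighter clone had its highest time mean at 18 h (9.94) and its lowest at 1.5 h (9.22), the dimmer clone its highest at 1.5 h (8.37) and its lowest at 18 h (7.87), and the SD between membranes of the same mouse was 0.302 in the former and 0.866 in the latter. Igf1 was detected in 1 of 27 mice and its stage means lay between 8.27 and 8.35. Igfbp3, the main carrier of insulin-like growth factors in plasma, ranged from 9.55 to 10.39 in early mice, from 9.54 to 10.35 in intermediate mice and from 9.46 to 9.91 in late mice (late minus intermediate -0.28, SE 0.11, adjusted p = 0.199). Igfbp5 and Igfals, the subunit that joins the plasma complex of these factors, had adjusted p of 0.417 and 0.345 over the stages.

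Tek, the angiopoietin receptor of endothelial cells, was highest at the early stage. The 4 mice at 1 h measured 9.19, 9.53, 9.81 and 9.97, and the 6 mice at 1.5 h lay between 9.52 and 10.41 (median 10.11). The 7 mice at 3 h lay between 8.82 and 10.24 (median 9.24), and those at 4 h measured 9.06, 9.22, 9.55 and 9.74. The 3 mice at 18 h measured 9.13, 9.32 and 9.64, and those at 24 h 9.25, 9.26 and 9.69. Groups overlapped at every stage. The 1.5 h mice stood highest, with 5 of 6 between 10.02 and 10.41, a range that 1 other OA mouse reached, at 3 h. The intermediate mean lay below the early mean by -0.56 (SE 0.15, 1.48-fold, limma, adjusted p = 0.0426), with an adjusted p over 3 stages of 0.0416 and over 6 time points of 0.145. This call depended on single mice, since with each OA mouse left out in turn it was kept in 9 of 27 fits and lost in 18, where the adjusted p reached 0.077. With lot as a block, the early minus other stages difference fell from 0.54 to 0.30 (adjusted p = 0.231). Within lots 2 and 3 the intermediate minus early difference was -0.47 (SE 0.19, adjusted p = 0.361). Late minus intermediate was 0.35 within lot 1 (SE 0.13, 6 against 3 mice, limma, adjusted p = 0.347), against 0.04 over all lots. Of 20 lymphocyte marker clones 7 differed over the stages, where 6.16% of all named clones did. Among them 6 were highest at the early stage, each detected in at most 4 OA mice. Thy1, detected in 18, was highest at the late stage (9.25, 8.95 and 9.33). The Ms4a1 clone detected most often, in 7 mice, had 8.34, 8.63 and 8.57 and did not pass (limma, adjusted p = 0.398). The mean of the lymphocyte list lay between 7.48 and 7.78 in early mice, 7.11 and 7.53 in intermediate mice and 7.32 and 7.57 in late mice. Of these 20 clones 14 were detected in no OA mouse, and their part in the Tek difference was not tested.

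Nrp1 had an adjusted p of 0.0691 over 6 time points and 0.0868 over 3 stages and was detected in every OA mouse. The 4 mice at 4 h, the time of the lowest mean, measured 9.99, 10.15, 10.63 and 10.68. The 3 mice at 24 h, the time of the highest mean, measured 11.11, 11.13 and 11.41, and these times did not overlap. At 1 h the values were 10.82, 10.99, 11.03 and 11.22. The 11 intermediate mice lay between 9.99 and 11.04, the 10 early mice between 10.63 and 11.22 and the 6 late mice between 10.44 and 11.41. The intermediate stage was below the mean of the others by 0.38 (difference -0.38), and within lots 2 and 3 the intermediate minus early difference was -0.38 (SE 0.11, adjusted p = 0.171).

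Tek, highest at 1.5 h, and Nrp1, lowest at 4 h, had the lowest adjusted p over the stages among the 9 receptor clones, and their promoters are shown for that reason. The sequences are from RefSeq on the mouse build GRCm38.p6, the 250 bases before the start of each gene on the plus strand, at chr4:94739039-94739288 for Tek and at chr8:128358823-128359072 for Nrp1. Capitals mark a match, on either strand, to any of ACGTG (the core of hypoxia response elements), GGGCGG (the GC box), TGACTCA (the AP-1 site) and CCGGAAG (an Ets site).
Tek: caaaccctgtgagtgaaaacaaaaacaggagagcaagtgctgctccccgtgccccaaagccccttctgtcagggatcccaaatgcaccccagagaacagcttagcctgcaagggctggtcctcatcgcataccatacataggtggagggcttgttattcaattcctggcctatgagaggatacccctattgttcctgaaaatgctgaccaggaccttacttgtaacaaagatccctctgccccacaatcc
Nrp1: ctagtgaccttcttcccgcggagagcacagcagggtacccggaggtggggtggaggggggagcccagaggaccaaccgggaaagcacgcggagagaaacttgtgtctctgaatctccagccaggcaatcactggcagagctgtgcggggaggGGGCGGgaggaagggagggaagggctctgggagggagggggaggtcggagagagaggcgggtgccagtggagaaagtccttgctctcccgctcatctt
The Tek window held none of these letters, and the Nrp1 window held 1 GC box. Of all 32851 promoter windows of the same length, 16.6% held ACGTG, 32.7% GGGCGG, 4.46% TGACTCA and 6.91% CCGGAAG, counting both strands. RefSeq promoter entries were at hand for 22 of the 29 member genes.

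Epha2, an Eph receptor of epithelial and endothelial cells, had the second widest range of time means, 1.03, and the widest spread between mice, with an SD of 0.713. Early mice lay between 7.15 and 10.39, intermediate mice between 8.74 and 10.88 and late mice between 9.89 and 10.63, and the adjusted p over 3 stages was 0.196. The SD between membranes of a mouse was 0.539. A single mouse at 1.5 h, hybridized to a single membrane, measured 7.15. Without this mouse the early stage lay 0.42 below the mean of the others in place of 0.70 (differences -0.42 and -0.70). Ednrb, the endothelin receptor B that clears endothelin from the lung circulation, had stage means of 9.19, 9.12 and 8.84, with adjusted p = 0.102 over the stages. Ephb6, an Eph receptor without kinase activity, was detected in no OA mouse and its time means ranged over 0.14.

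None of the 7 clones of intracellular namesakes differed over time points or stages (2.01% and 6.16% of all named clones did). Only the brighter clone of Igf2bp3, an RNA-binding protein of fetal tissues, was detected, in all 27 mice, with early, intermediate and late ranges of 9.85 to 10.59, 9.74 to 10.88 and 9.58 to 10.46. The dimmer clone of Igf2bp3 was detected in none.

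None of 11 endothelial, 10 fibroblast, or 6 smooth muscle and pericyte marker clones differed over time points or stages. Of all named clones 2.01% and 6.16% did. The mean of the endothelial clones, among which Cdh5 and Cldn5 were detected in every OA mouse, lay between 8.90 and 9.55 in early mice, 9.22 and 9.67 in intermediate mice and 9.09 and 9.50 in late mice. In RNA of lung tissue, fewer cells of a type and less RNA per cell cannot be told apart.

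Other genes of the pathway were counted in the same way. For comparison, 2.01% of all named clones differed over time points and 6.16% over stages. Of 47 clones of receptor tyrosine kinase signalling (adaptors, kinases and inhibitors downstream of these receptors), 0 differed over time points and 1 over stages, a clone of the ubiquitin ligase Cblb that was detected in no mouse (7.40, 7.72 and 7.39 at the early, intermediate and late stage, adjusted p = 0.00758). Of 19 clones of other growth factors and receptors, 1 differed over time points and 2 over stages. Ctgf, a matricellular factor linked to fibrosis, had stage means of 10.48, 10.69 and 9.82 (adjusted p = 0.00264). The dimmer clone of Kit, the receptor of stem cell factor, had 8.15, 7.76 and 8.03 (adjusted p = 0.0445). The brighter Kit clone had 8.23, 7.98 and 8.40 and did not pass (limma, adjusted p = 0.153). Both Kit clones were detected in no OA mouse. Of 17 clones of hypoxia and vessel regulators, 0 differed over time points and 1 over stages. It was the Notch target Hey1, detected in 10 OA mice, with 8.85, 8.56 and 9.11 (adjusted p = 0.0403). Hif1a, the oxygen-regulated transcription factor, had stage means of 10.22, 10.17 and 10.27 (adjusted p = 0.869).

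OA mice were compared with serum mice on the image intensities, quantile-normalized over all 60 membranes. The membranes of OA and serum mice stood apart as a whole, and this sets the background for every member. The rank correlation over named clones lay between 0.859 and 0.979 for pairs of OA mice, between 0.924 and 0.973 for pairs of serum mice, and between 0.726 and 0.901 for an OA and a serum mouse. In a fit of all spots, 60.1% of the 2159 spots without a gene name passed the test of OA against serum, as did 190 of 192 Arabidopsis control spots, all 190 lower in OA, at a median of -1.08. Averaged over the 5 shared time points, 18 of the 31 clones differed between OA and serum (58.1%), where 61.6% of all named clones did (limma, adjusted p under 0.05). Of these, 10 were higher in OA (32.3%, against 34.3% of all) and 8 lower (25.8%, against 27.3%). These shares are near those of all clones and are no result about the members. What part of a member's difference came with the injection, and what part with the membranes, was not tested.

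**Figure D3:**
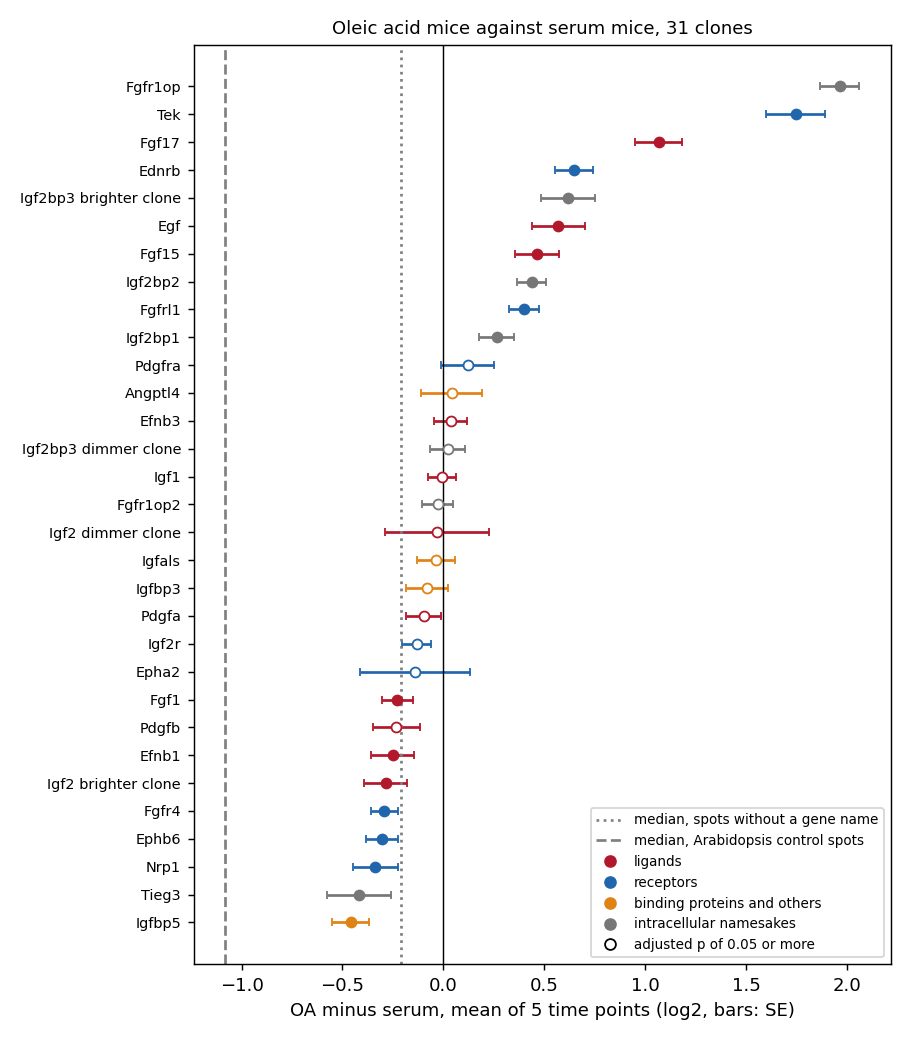
Difference between OA and serum mice averaged over 5 time points (log2, horizontal axis, bars are SE) for 31 clones, coloured by role, with filled points at an adjusted p under 0.05. Dashed and dotted lines mark the median difference of the Arabidopsis control spots (-1.08) and of the spots without a gene name (-0.21). Fgfr1op, Tek and Fgf17 lie above 1 and Igfbp5 is lowest at -0.46.

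Among ligands, receptors and binding proteins the largest difference was that of Tek. Its 8 serum mice lay between 7.32 and 8.24 on the scale of the normalized intensities, and its 27 OA mice lay between 8.73 and 10.32, with no overlap. Tek was detected in 25 OA mice and in no serum mouse. The difference was 1.75 (SE 0.15, adjusted p = 6.04e-11). Since no serum microarray measured it above the threshold, the fold is a bound. With each serum value set at the threshold of its microarray, the measured signal of Tek was at least 1.23-fold higher in OA. This bound does not take in the difference between OA and serum membranes, which was -1.08 at the median of the Arabidopsis control spots. The measured difference was higher in OA at 5 of 5 time points, with 1.98 at 1 h, 2.65 at 1.5 h, 1.38 at 3 h, 1.33 at 18 h and 1.39 at 24 h. Of the 11 endothelial marker clones, 3 were higher and 5 lower in OA, at a median of -0.32. Over all named clones 34.3% were higher and 27.3% lower, at a median of 0.048. Among the 3 higher clones, Cdh5 was detected in 27 OA mice, and Aqp1 and the dimmer clone of Pecam1 in 0. Each of the 5 lower clones was detected in 7 or more. Whether the Tek difference itself changed between stages was tested in the same fit, and the adjusted p was 0.379 (p = 0.0137 without adjustment).

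Ednrb was higher in OA by 0.65 (SE 0.09, adjusted p = 1.13e-06) and was detected in 16 of 27 OA mice and in none of 8 serum mice. No fold is given, since the mean of the OA mice (8.92) lay under the mean threshold of the serum microarrays (9.14). Serum mice lay between 7.97 and 8.60 and OA mice between 8.58 and 9.46, so that the ranges touched. Igfbp5, a binding protein held in the extracellular matrix, was lower in OA by -0.46 (SE 0.09, adjusted p = 7.27e-05). Its serum mice lay between 9.00 and 10.02 and its OA mice between 8.68 and 9.46, and the difference ran from -0.80 at 1.5 h to 0.0032 at 24 h. With the deposited serum columns it was -0.22 and did not pass (adjusted p = 0.0595). The brighter clone of Igf2bp3 was 0.62 higher (SE 0.13, adjusted p = 0.000257). Its dimmer clone, detected in no mouse of either kind, did not pass (0.02, SE 0.09, limma, adjusted p = 0.833).

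Several other differences were of clones detected in no mouse of either kind, so they have no fold. Fgfr1op was higher in OA by 1.96 (SE 0.10, adjusted p = 5.1e-16), Fgf17, a factor of the developing brain, by 1.07 (SE 0.12, adjusted p = 7.42e-09), Igf2bp2 by 0.44 (SE 0.07, adjusted p = 6.93e-06) and Fgfrl1, an FGF receptor without a kinase domain, by 0.40 (SE 0.07, adjusted p = 2.92e-05). The Fgf17 call was lost with the deposited serum columns (0.04, adjusted p = 0.738) and with the fitted signal (1.44, adjusted p = 0.0633). Fgf1 was lower in OA by -0.23 (SE 0.08, adjusted p = 0.0116) and Nrp1 by -0.34 (SE 0.11, adjusted p = 0.012), and for both OA and serum mice overlapped. The Fgf1 difference ran from 0.0037 at 1 h to -0.67 at 18 h, the only single time that passed (limma, adjusted p = 0.00228). That of Nrp1 ran from -0.12 at 1.5 h to -0.68 at 18 h and passed at 3 h and 18 h.

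Angptl4, with the widest range among OA mice, did not pass the test against serum on average (0.04, SE 0.15, adjusted p = 0.833). Serum mice measured 8.67 and 9.43 at 1 h, 9.10 at 1.5 h, 8.75 and 9.36 at 3 h, 8.32 and 8.96 at 18 h, and 8.69 at 24 h. At 3 h the OA mice lay between 9.26 and 10.39 and exceeded serum by 0.67 (SE 0.28, adjusted p = 0.0576), and at the other 4 shared times the difference lay between -0.42 and 0.06. At 4 h, where the mean of OA mice was highest, no serum microarray was analysed here. Pdgfb was lower in OA by -0.23 on average (SE 0.12, adjusted p = 0.0826), with serum mice at 7.36 and 8.46 at 3 h. Without the former of these it was -0.34 (adjusted p = 0.00544), and without the latter -0.12 (adjusted p = 0.307).

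The test of whether OA minus serum differed between stages, which carries the spread of the serum mice, called 0 of the 31 clones, where 0.0525% of all named clones passed (limma, adjusted p under 0.05). At an unadjusted p under 0.05 it held for 1 of the 31, Tek, and for 9.26% of all. For Angptl4 the OA minus serum difference rose by 0.87 from the early stage to 3 h and changed by -0.72 from 3 h to the late stage (p = 0.0691 without adjustment, adjusted p = 0.579).

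**Figure D4:**
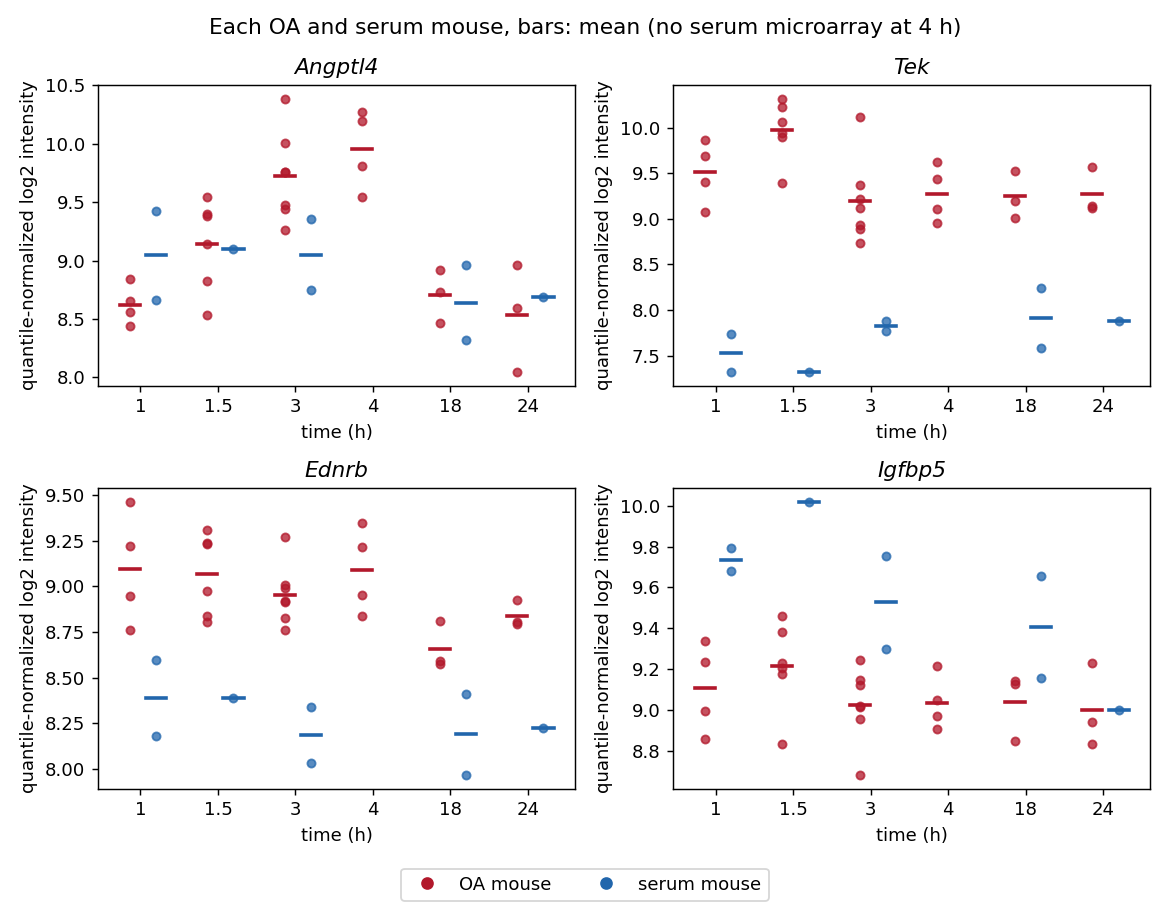
Quantile-normalized log2 intensity of each OA mouse (red) and serum mouse (blue) at 6 times for 4 genes, with bars at the means; no serum microarray at 4 h was analysed. Tek lies between 8.73 and 10.32 in OA mice and between 7.32 and 8.24 in serum mice, while for Angptl4 the groups overlap and the OA mice are highest at 3 h and 4 h.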

How the data were processed

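Total RNA of the smallest lung of each mouse was labelled with 33P and hybridized to nylon cDNA microarrays of 9984 spots. Per the file headers and the methods, the authors quantified spots with Bzscan2 and deposited an intensity per spot and microarray without normalization between microarrays. They also deposited a quantile-normalized log2 table with 1 column per OA microarray and 1 serum column per time point. The OA columns of this table rank as the image intensities do, whereas the serum columns rank closer to another signal, the fitted signal at calculated diameter, in 5 of 5. OA mice were therefore compared over time in the deposited log2 table without serum subtraction, and OA with serum mice from the intensities of 60 microarrays, floored at 1, log2-transformed and quantile-normalized. Each microarray counted toward its mouse, and values were averaged per mouse. 1 OA microarray whose mouse could not be settled was left out. Groups came from the labels, and which serum microarrays shared a mouse came from the design the study describes. With at most 2 serum mice per time point, p-values rest largely on the spread of the OA mice.

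Linear models were fitted to all 7625 clones with a gene name (limma 3.58.1, R 4.3.3), with moderated F tests over 6 time points and over 3 stages, contrasts between stages, the mean OA minus serum difference over 5 time points, and the test of whether that difference changed between stages. P-values were adjusted by Benjamini-Hochberg over all clones at 0.05. The fits were tested on simulated data. The depth of an array is not counted, and the number of microarrays limits the precision. Members and gene lists were chosen with earlier results of these data known. Values are given for clones called over time points or stages, the brightest of each role, the 8 with the smallest p against serum, and Fgf1; others are given as counts, ranges or short values. The list of adipocyte genes and that of fatty acid oxidation genes were added after values had been seen. A list of airway epithelium genes had no clone. Alternatives were the intensities, median centring, subtraction of the serum column, lot as a block or within lots, removal of dim clones, microarrays as samples with the mouse as a random block, the unresolved or conflicting microarray added or left out, averaging of clones, the fitted signal, the deposited serum columns, and leaving out each mouse. Promoter sequences came from RefSeq (GRCm38.p6).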

Additional observations from a re-analysis of the deposited data

Results flagged for a closer look

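Among 52 groups of 4 to 7 mice of the same time point (13 clones), 5 held a mouse far from the others, and chance alone sets apart about 1 group in 20. Epha2 measured 7.15 in a mouse at 1.5 h with a single membrane (P7L2), whose nearest neighbour of 6 mice was at 9.53. Igfbp3 measured 10.39 in a mouse at 1 h (P2L2), with the nearest of 4 mice at 9.82, and 10.28 in a mouse at 4 h (P13L3), with the nearest at 9.92. The same mouse at 4 h measured 10.80 for the brighter clone of Igf2bp3, against 10.31 in the nearest of 4 mice. Igf2r measured 9.05 in a mouse at 3 h (P16L2), with the nearest of 7 mice at 9.27. None of these genes passed the test over time points or stages.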

How the results depend on the processing

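No paired analysis was possible because each mouse gave lung RNA at 1 time point. Over 6 time points, 2 clones passed (153 of 7625 named clones). With quantile-normalized intensities 1 did (155 of all), and without the microarray of conflicting labels also 1 (148 of all). With dim clones filtered out 1 of 14 members passed (98 of 2830 clones). With the serum column of the same time subtracted (that of 3 h for the 4 h mice) 29 did, where 7187 of 7625 clones passed. Over 3 stages, 3 clones passed (470 of 7625). With microarrays as samples and the mouse as a random block, 6 did (773 of 7625), with Pdgfa, Fgf1 and Nrp1 in addition. With the serum column subtracted 24 passed (5912 of all). The count was 1 within lots 2 and 3 (19 of all) and 1 within lot 1 (46 of all), Angptl4 both times. Subtracting the serum column, which adds 1 value per time to all its mice, turned the direction of Pdgfa (1.93), the brighter clone of Igf2 (0.41), Igf1 (0.84) and Pdgfra (-0.82), each as the most different stage minus the mean of the others, and ended the call of Pdgfb over stages (-0.03). Against serum, 18 clones passed (4700 of all), and 8 did with the fitted signal (1859 of all). With dim clones filtered out 6 of 13 members passed, where 1628 of 2776 clones did. For the change of OA minus serum between stages, 0 passed and 17 did with the deposited serum columns (4082 of all). Leaving out each mouse gave 1 to 3 clones over time points, 2 to 4 over stages, 16 to 18 against serum and 0 to 1 for the change between stages, the 1 being Fgf15 without a serum mouse at 3 h. Leaving out the only serum mouse at 1.5 h or 24 h could not be fitted. For single genes, 791 values kept their direction and side of the threshold, 14 changed sign without passing in either setting, 24 lost the call and 17 gained it. Tek lost its call over stages with median centring (0.47, adjusted p = 0.0598). The cause of these changes was not tested.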

Other observations

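Genes of fatty acid oxidation and PPAR targets, listed after the values of Angptl4 had been seen, were measured by 19 clones. None passed over 6 time points (2.01% of all named clones did) and 2 passed over 3 stages (6.16% of all did), each in its own direction. The brighter clone of Acadl, an acyl-CoA dehydrogenase of mitochondria, had stage means of 10.11, 9.90 and 9.56 (limma, adjusted p = 0.0416). The dimmer clone of Acadl had 9.05, 8.98 and 8.87 and did not pass (adjusted p = 0.565). Acadvl, the enzyme for very long chains, had 8.33, 8.46 and 8.73 (adjusted p = 0.015) and was detected in only 1 OA mouse. The mean of the 19 clones lay between 9.37 and 9.49 in early mice, 9.31 and 9.58 in intermediate mice and 9.43 and 9.65 in late mice.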
